A study of Homo sapiens with 12 samples.

Results

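The genes described here are 6 non-coding hosts of small nucleolar RNAs (snoRNAs), GAS5, SNHG1, SNHG3, SNHG5, SNHG8 and SNHG12, the nuclear long non-coding RNAs MALAT1 and NEAT1, the intergenic RNA LINC00926 and the microRNA host MIR23AHG. The members were taken as every array probe annotated to 1 of these 10 genes and to no other gene, which gave 21 probes of 87709 on both platforms, for 7 of the 10 genes (of 20783 genes in the series with such a probe). Of these, 15 of 54613 were Affymetrix (AFFX) probe sets and 6 of 33096 were Applied Biosystems (ABI) probes. GAS5, MALAT1 and LINC00926 had such probes on AFFX, and SNHG1, SNHG8, MALAT1, NEAT1, LINC00926 and MIR23AHG had 1 each on ABI. SNHG3, SNHG5 and SNHG12 had none on either platform. A further 26 probes, 22 on AFFX and 4 on ABI, were annotated to a host gene together with the snoRNA or microRNA genes that lie inside it. They are described after the members' own probes and are never counted with them, because the annotation does not assign their signal to 1 gene.

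RNA came from A2780 cells, a human ovarian carcinoma line, exposed for 6 h to 3 µM of a cell cycle inhibitor that the sources do not name (treated), or left untreated (control). Per the methods, 3 biological replicates of each condition were pooled, and the pool was divided into 3 aliquots per condition and platform, 12 arrays in all. Only cells still attached were harvested, so detached cells are not represented. The arrays are therefore technical replicates of 1 pool per condition, and every p-value below measures the spread between aliquots and not between cultures. In such bulk RNA, fewer cells with a transcript and less of it per cell cannot be told apart.

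A snoRNA host gene carries its snoRNAs inside introns. Splicing frees the intron, the snoRNA is trimmed out of it and guides the chemical modification of other RNAs, mostly ribosomal RNA, while the spliced exons of hosts such as GAS5 and SNHG1 code for no known protein and are degraded in the cytoplasm when ribosomes read them (nonsense-mediated decay). Some of these hosts belong to the 5′ terminal oligopyrimidine (TOP) class, whose RNAs start with a C followed by a run of C and T, as the ribosomal protein mRNAs do. MALAT1 stays in the nucleus at the splicing-factor bodies called nuclear speckles, and NEAT1 is the scaffold on which the paraspeckle bodies form. The 2 genes are neighbours in the genome.

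The sequence around the annotated transcript start of each of the 6 snoRNA hosts is shown because the start is where the TOP pattern would stand. Each line gives the 40 bases before the start in lower case and the first 20 bases of the transcript in capitals, from RefSeq (GRCh38.p14).
GAS5 (chr1:173869026-173869085, minus strand): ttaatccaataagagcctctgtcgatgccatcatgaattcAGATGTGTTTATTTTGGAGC
SNHG1 (chr11:62855866-62855925, minus strand): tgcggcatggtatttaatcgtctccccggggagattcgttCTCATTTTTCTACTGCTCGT
SNHG12 (chr1:28581854-28581913, minus strand): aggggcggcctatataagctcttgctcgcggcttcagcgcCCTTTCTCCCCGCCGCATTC
SNHG3 (chr1:28505903-28505962, plus strand): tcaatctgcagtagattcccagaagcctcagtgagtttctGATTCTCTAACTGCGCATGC
SNHG5 (chr6:85678714-85678773, minus strand): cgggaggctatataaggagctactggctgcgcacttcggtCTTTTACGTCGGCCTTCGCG
SNHG8 (chr4:118278722-118278781, plus strand): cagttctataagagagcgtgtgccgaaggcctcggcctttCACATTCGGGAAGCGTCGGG
Among these, SNHG5 and SNHG12 began with C and had only C or T in their first 5 bases, with 5 and 11 such bases before the first purine. That pattern stood at 2 of the 9 starts listed for 8 of the 10 genes and at 4.07% of all 35116 starts in the same table. The start used in these cells was not measured and may differ from the listed one. A listed start without the pattern therefore does not show that the gene is outside the TOP class. The letters CTTT, searched on both strands of the 60 bases, were present at 4 of the 9 starts against 39.4% of all. At SNHG8 they lie directly before the listed start. The letters TATAA, searched on both strands of the same 60 bases, were present at 4 of the 9 starts (SNHG5, SNHG8, SNHG12 and 1 of the 2 listed for MALAT1) against 6.49% of all starts. SNHG5 and SNHG12 had both the TOP pattern and TATAA. The probes listed for SNHG5 changed by 1.14-fold and 1.18-fold and were not called, and those for SNHG12 were between 2.08-fold and 4.26-fold lower. A link between these letters and the changes was not tested.

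MIR23AHG is the precursor of 3 microRNAs, and these are shown as the products of the transcript whose ABI signal changed most among the members. Capitals mark the seed, bases 2 to 8 of the mature RNA, the stretch that pairs with target mRNAs (RefSeq, GRCh38.p14).
miR-24-3p (MIR24-2, chr19:13836289-13836310, minus strand): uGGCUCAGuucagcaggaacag
miR-27a-3p (MIR27A, chr19:13836447-13836467, minus strand): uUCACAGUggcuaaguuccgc
miR-23a-3p (MIR23A, chr19:13836595-13836615, minus strand): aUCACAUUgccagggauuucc
The 3 seeds differ from each other, those of miR-23a-3p and miR-27a-3p only at the base before the last. Mature microRNAs were not measured on either platform.

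Every value below is a log2 signal, each change is the treated mean minus the control mean on that scale with its standard error, and a probe was called higher or lower at an adjusted p under 0.05 (limma, Benjamini-Hochberg over all probes of the platform) and at least 1.5-fold. On AFFX 7 of the 15 member probe sets were called higher, 1 lower and 7 were not called. Of all AFFX probe sets 1.75% were called higher, 8.95% lower and 10.7% either way. Of the 15 sets 12 belong to MALAT1 and 2 to LINC00926, and the 7 higher calls were 5 of MALAT1 and 2 of LINC00926. Sets of the same transcript are not separate genes, so the AFFX counts and median given here mostly describe MALAT1. On ABI 3 of the 6 member probes were called higher, 1 lower and 2 were not called, where 7.71% of all probes were higher, 10.1% lower and 17.8% either way. The treated and control arrays did not overlap at 12 of the 15 AFFX probe sets and at 6 of the 6 ABI probes, against 51.5% of all AFFX probe sets (34.0% with treated above control) and 40.9% of all ABI probes (23.8%). The median change of the members was 0.56 on AFFX and 0.23 on ABI, beside 0.12 and 0.16 over all probes. The balance of the calls depended on how arrays were scaled: 3 higher and 2 lower on AFFX when arrays were centred on the hybridisation controls, 4 and 2 when centred on ribosomal protein genes, and 1 higher and 3 lower on ABI with the second centring. The ribosomal protein genes were themselves higher in treated cells (median change 0.24 on AFFX and 0.63 on ABI). Centring on them therefore lowers every change, most on ABI.

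**Figure D1:**
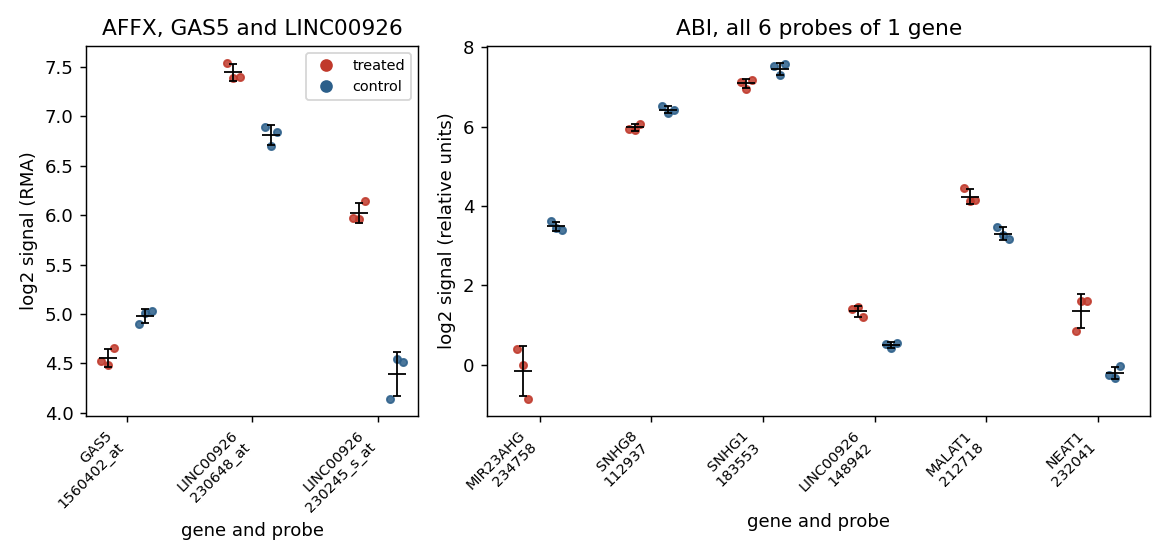
Log2 signal of each array at the probes of 1 gene, outside the MALAT1 probe sets of AFFX (left, RMA) and on ABI (right, log2 of relative units); points are arrays, treated in red on the left of each pair and control in blue, and bars are the mean and SD of 3 arrays. No pair of groups overlaps; MIR23AHG has the widest gap, with treated arrays between -0.86 and 0.39 and control arrays between 3.39 and 3.62.

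The 2 hosts with an ABI probe of their own, SNHG1 and SNHG8, were lower on all 3 treated arrays than on any control array but were not called. SNHG1, the host of 8 C/D box snoRNAs, had ABI signals of 7.12, 6.96 and 7.18 in treated cells and 7.52, 7.29 and 7.57 in control cells. Its change was -0.38 ± 0.142 (adjusted p = 0.123). SNHG8, the host of SNORA24, had 5.95, 5.92 and 6.07 in treated cells and 6.52, 6.35 and 6.42 in control cells, a change of -0.45 ± 0.122 (adjusted p = 0.0535). On AFFX the probe sets listed for these hosts with their snoRNAs gave -0.27 ± 0.0783 for SNHG1 (224610_at, adjusted p = 0.0204) and -0.39 ± 0.0933 for SNHG8 (225220_at, adjusted p = 0.00834), both under 1.5-fold and not called. The difference between the platforms was 0.11 ± 0.136 for SNHG1 and 0.06 ± 0.134 for SNHG8 (adjusted p = 0.653 and 0.803 in the interaction fit of limma), so no difference was detected at this spread. The calls depended on scaling: centred on ribosomal protein genes, ABI gave -1.01 for SNHG1 and -1.08 for SNHG8, both called lower, and SNHG1 was also called lower on ABI after renewed quantile normalization (-0.70). On AFFX SNHG8 225220_at was called lower with either centring (-0.91 on the hybridisation controls, -0.68 on ribosomal protein genes) and SNHG1 224610_at with the first (-0.79).

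GAS5, a host of C/D box snoRNAs named for its accumulation in growth-arrested cells, was lower in treated cells at its own probe set, by less than the fold limit. That probe set, 1560402_at, had 4.52, 4.48 and 4.66 in treated cells and 4.90, 5.01 and 5.03 in control cells. The change was -0.43 ± 0.0873 (adjusted p = 0.0033), 1.34-fold, at a dim probe set that stood at percentile 32.1 of brightness on the treated arrays and 42.3 on the control arrays. It was called lower when AFFX arrays were centred on the hybridisation controls (-0.95) or on ribosomal protein genes (-0.73).

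The 4 AFFX probe sets listed for GAS5 together with 8 snoRNA genes were all called lower, by very different amounts. The farthest, 227517_s_at, had 7.19, 7.22 and 6.99 in treated cells and 10.66, 10.62 and 10.62 in control cells, a change of -3.50 ± 0.0881 (11.3-fold, adjusted p = 2.62e-09). The next, 228238_at, had 7.34, 7.70 and 7.18 in treated cells and 9.28, 9.20 and 8.83 in control cells, a change of -1.70 ± 0.147 (adjusted p = 6.35e-06). The other 2 lie at the top of the platform's range (percentile 98.7 for 224741_x_at on treated arrays) and changed by -0.60 ± 0.0815 and -0.63 ± 0.0815. Within the same arrays, 227517_s_at fell by 2.90 more than the brightest of the 4 and 228238_at fell by 1.10 more (adjusted p = 4.12e-07 and 0.000966, limma), while the other _x_at probe set differed from it by -0.04 (adjusted p = 0.81). Over all probe sets with a brighter one of the same gene list, 29.0% differed from it. The annotation does not say which part of the gene each set reads. The calls at the 2 bright sets rest close to the fold limit, and that of 224741_x_at was lost without control replicate 1 (-0.57) or control replicate 3 (-0.58).

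On ABI the 3 probes listed for GAS5 with SNORD44 and SNORD47 were all called lower. They changed by -1.0 ± 0.139, -0.76 ± 0.129 and -0.75 ± 0.156 (adjusted p = 0.0079, 0.015 and 0.0268). The first of these, 183660, had 6.54, 6.41 and 6.32 in treated cells and 7.53, 7.49 and 7.27 in control cells. The calls of the other 2 were lost without control replicate 1, without control replicate 3 or without treated replicate 2, and that of 234451 also without control replicate 2 or treated replicate 3. The ABI changes did not differ detectably from those of the 2 bright AFFX sets (6 pairs, differences from 0.11 to 0.41, lowest adjusted p = 0.0737), while the 3 differences to 227517_s_at ran between -2.75 and -2.49 (adjusted p of 8.31e-06 or below), beside 15.3% of all tested pairs and genes. Of the other 6 pairs, 3 differed: the GAS5 probe set 1560402_at changed less than ABI probe 183660 (0.58, adjusted p = 0.0236), and 228238_at changed more than 115558 and 234451 (-0.94 and -0.95, adjusted p = 0.0176 and 0.0245).

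**Figure D2:**
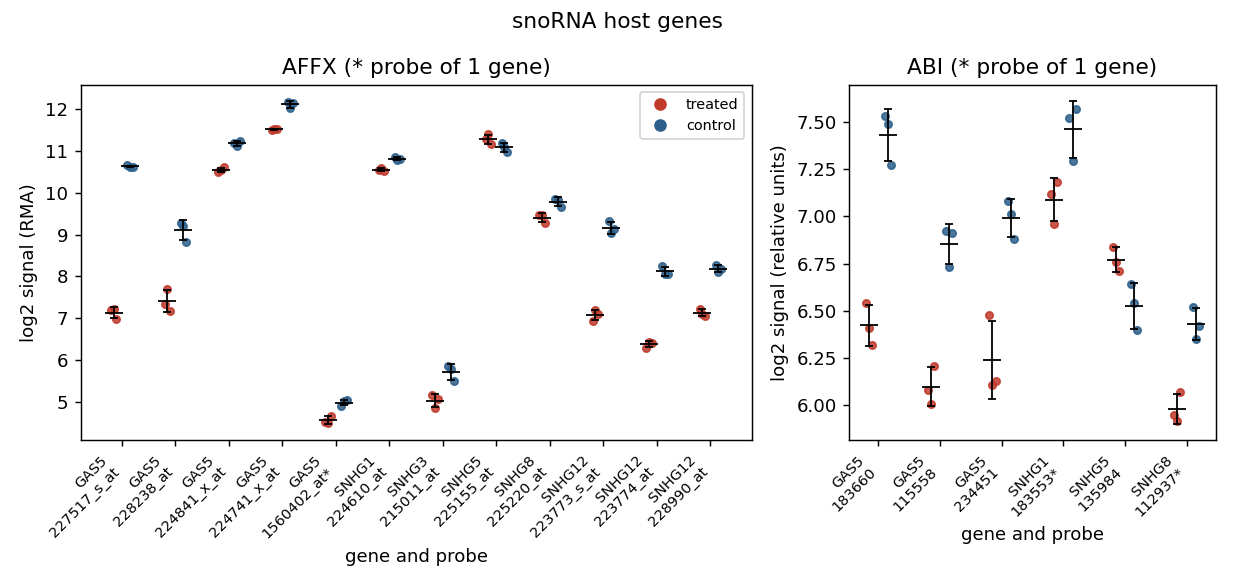
Log2 signal of each array at all probes listed for the 6 snoRNA host genes, on AFFX (left, RMA) and ABI (right, log2 of relative units); points are arrays, treated in red on the left of each pair and control in blue, bars are the mean and SD of 3 arrays, and an asterisk marks a probe of 1 gene. Treated arrays lie far below control arrays at GAS5 227517_s_at (-3.50) and 228238_at (-1.70) and at the 3 SNHG12 probe sets (-2.09 to -1.05), and SNHG5 is the host whose treated arrays average above its control arrays on both platforms.

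The 3 AFFX probe sets listed for SNHG12 and 3 H/ACA box snoRNA genes, SNORA16A, SNORA61 and SNORA44, were all called lower. The brightest, 223773_s_at, had 6.94, 7.20 and 7.09 in treated cells and 9.33, 9.04 and 9.13 in control cells, a change of -2.09 ± 0.103 (4.26-fold, adjusted p = 9.31e-08). The other 2 changed by -1.75 ± 0.0901 (223774_at) and -1.05 ± 0.0884 (228990_at), and both fell less than the brightest within the same arrays, by 0.34 and 1.04 (adjusted p = 0.0261 and 0.000169). No treated array overlapped a control array at any of them. They kept their call and direction under all alternatives run.

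SNHG3, the host of SNORA73A, and SNHG5, the host of the SNORD50 pair, differed. The only SNHG3 probe set, 215011_at, shared with SNORA73A, had 5.15, 4.85 and 5.06 in treated cells and 5.85, 5.79 and 5.49 in control cells and was called lower (-0.69 ± 0.116, adjusted p = 0.000985). SNHG5 was bright on both platforms and was called on neither: 225155_at had 11.28, 11.40 and 11.18 in treated cells and 11.19, 11.11 and 10.98 in control cells (0.19 ± 0.0932, adjusted p = 0.128), and ABI probe 135984 changed by 0.24 ± 0.127 (adjusted p = 0.244). The sign at SNHG5 turned to -0.33 and -0.11 on AFFX with the 2 centrings and to -0.39 on ABI with that on ribosomal protein genes. Across the snoRNA hosts, 8 of the 11 AFFX probe sets of several genes were called lower and none higher. Over all AFFX probe sets 8.95% were called lower and 1.75% higher. The 8 were 4 sets of GAS5, 3 of SNHG12 and 1 of SNHG3, and the sets of SNHG1, SNHG5 and SNHG8 were not called. Sets of the same host are not separate genes.

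**Figure D3:**
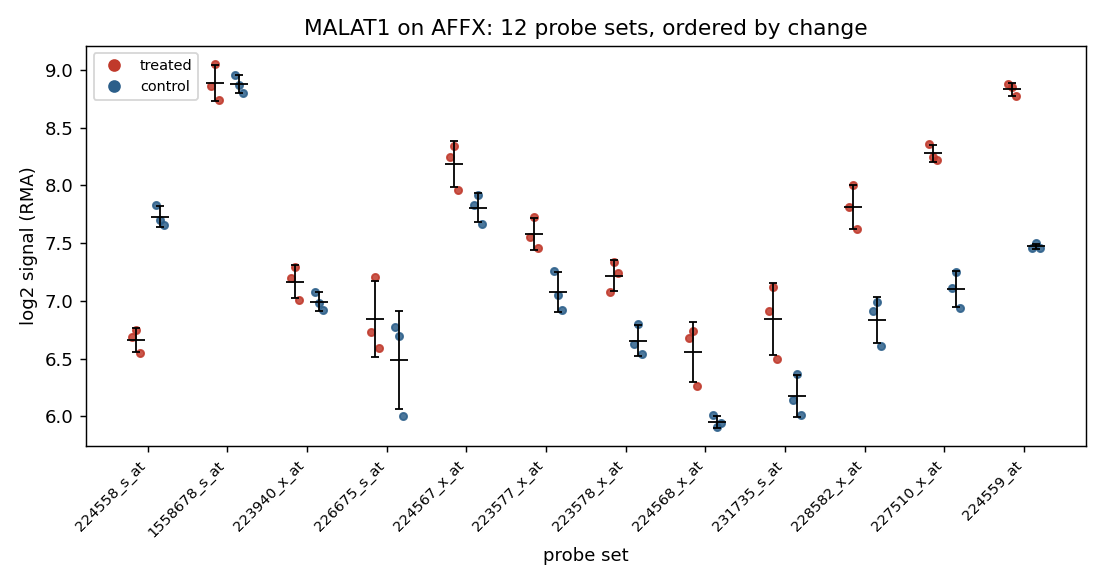
Log2 signal (RMA) of each AFFX array at the 12 MALAT1 probe sets, ordered by change; points are arrays, treated in red on the left of each pair and control in blue, and bars are the mean and SD of 3 arrays. The order runs from 224558_s_at, with treated arrays below the control arrays, through 1558678_s_at, where the groups overlap, to 224559_at, with treated arrays 1.36 above the control arrays on average.

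MALAT1 gave opposite calls within 1 gene on the same arrays. Of its 12 AFFX probe sets 5 were called higher, 1 lower and 6 not, and the ABI probe was called higher. At the upper end, 224559_at had 8.88, 8.85 and 8.77 in treated cells and 7.46, 7.5 and 7.46 in control cells, a change of 1.36 ± 0.0794 (2.57-fold, adjusted p = 2.91e-07). At the lower end, 224558_s_at had 6.69, 6.75 and 6.55 in treated cells and 7.83, 7.70 and 7.66 in control cells, a change of -1.07 ± 0.0898 (2.10-fold lower, adjusted p = 4.89e-06). The brightest set, 1558678_s_at, lay between them: 8.86, 9.05 and 8.74 in treated cells overlapped 8.96, 8.87 and 8.80 in control cells (0.01 ± 0.0978, adjusted p = 0.954).

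The other called sets were 227510_x_at (1.18 ± 0.0977), 228582_x_at (0.97 ± 0.123), 231735_s_at (0.67 ± 0.149) and 224568_x_at (0.60 ± 0.121). The call at 231735_s_at was lost without treated replicate 2 (0.53), and that at 224568_x_at without control replicate 2 (0.58), treated replicate 1 (0.54) or treated replicate 2 (0.52). The 5 uncalled sets beside the brightest ranged from 0.17 to 0.56. Of those 5, 223578_x_at, 223577_x_at and 224567_x_at had treated arrays above all control arrays but stayed under the fold limit, and at 223940_x_at and 226675_s_at the groups overlapped. Within the same arrays, 9 of the 11 other sets differed from the brightest set, where 29.2% of all such differences of the platform did. The lowest of these differences was -1.08 ± 0.098 (224558_s_at, adjusted p = 2.56e-05) and the highest 1.35 ± 0.11 (224559_at, adjusted p = 1.27e-05, limma). A test of unequal change over the 12 sets as a group (diffSplice in limma) gave an adjusted p of 1.76e-13.

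The suffix _x marks probe sets that may hybridise with other transcripts, and 7 of the 12 MALAT1 sets carry it. Of these 7, 3 were called higher and 4 not called. Among the 5 without it, 2 were called higher, 1 lower and 2 not called, and the sets at both ends of the range were among these 5. Of these, 4 carry another suffix, _s, with 1 called higher, 1 lower (224558_s_at) and 2 not called. Only 224559_at had no such suffix. Lacking _x does not show that a set reads MALAT1 alone. The position of each set along the transcript was not available from the annotation used here. With arrays centred on the hybridisation controls, 5 sets with a change between 0.01 and 0.50 turned negative, the calls at 224568_x_at, 231735_s_at and 228582_x_at were lost, and those at 227510_x_at and 224559_at stayed higher. At 1 probe set for the gene, that with the lowest p, the call turned round: it was higher at 224559_at with the deposited scaling, but the lowest p was that of 224558_s_at with either centring, and MALAT1 was then called lower (-1.59 on the hybridisation controls, -1.37 on ribosomal protein genes).

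On ABI MALAT1 had 4.45, 4.13 and 4.14 in treated cells and 3.48, 3.28 and 3.16 in control cells, a change of 0.93 ± 0.161 (1.91-fold, adjusted p = 0.0157). That call was lost without control replicate 2 (0.92), without control replicate 3 (0.86) and with arrays centred on ribosomal protein genes (0.30). Whether the platforms differed depended on the AFFX set taken. The ABI change differed from that of 3 of the 12 sets, with 224558_s_at the farthest (-2.0 ± 0.171, adjusted p = 7.35e-05), and for 224559_at, the set with the lowest p, the difference was 0.43 ± 0.159 (adjusted p = 0.104).

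The 3 genes whose deviations from the control mean over all 12 arrays were closest to those of MALAT1, among 16185 genes on both platforms read at the probe with the lowest p, were RPS6 (root mean square difference 0.178), H2AC17 (0.199) and LINC00926 (0.208). On AFFX the MALAT1 set read was 224559_at, the one with the highest change (1.36). Likeness to its other sets was not computed. RPS6, a protein of the small ribosomal subunit, changed by 1.17 on AFFX and 0.84 on ABI. For GAS5 at its own probe set, over the 6 AFFX arrays and 19776 genes, the nearest were ADGRA3 (0.0338), PRDX3 (0.0483) and WDR35 (0.0491), with changes of -0.45, -0.44 and -0.40.

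NEAT1 had 1 probe of its own, on ABI, and it was called higher. Its signals were 0.86, 1.61 and 1.61 in treated cells and -0.25, -0.32 and -0.03 in control cells, a change of 1.56 ± 0.25 (2.95-fold, adjusted p = 0.0123). The probe stood at percentile 64.0 of brightness on treated arrays and 47.3 on control arrays, and the call was lost without control replicate 2 (1.5). Some leukocyte and endothelial markers reached that control level on ABI: VWF (65.9), LYZ (51.1) and CD14 (47.8) on control arrays. The other such markers, and those of B lymphocytes, stood lower there. Without detection flags, the control signal of NEAT1 on ABI cannot be told from background.

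The 9 AFFX probe sets listed for NEAT1 and MIR612, a microRNA gene inside it, showed another picture, with 4 called lower and 5 not called. The brightest, 224565_at, had 7.37, 7.51 and 7.38 in treated cells and 9.59, 9.43 and 9.43 in control cells, a change of -2.06 ± 0.087 (4.18-fold lower, adjusted p = 3.87e-08). Nearly the same change was found at 234989_at (-2.11 ± 0.102) and 225239_at (-2.28 ± 0.119), and a smaller one at 224566_at (-1.37 ± 0.0874). The 5 uncalled sets changed by between -0.30 and 0.18. Of these, 227062_at was called lower with either centring of the arrays (-0.82 on the hybridisation controls, -0.60 on ribosomal protein genes) and 238320_at with the first (-0.69).

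Within the arrays, 234989_at and 225239_at did not differ detectably from the brightest set (-0.05 and -0.22, adjusted p = 0.798 and 0.296), while 224566_at and the 5 uncalled sets did, by 0.69 to 2.24. The 5 uncalled sets were dimmer in control cells, at percentiles 25.2 (220983_s_at) to 64.6 (227062_at) of brightness. The 4 called sets stood at 74.4 (225239_at) to 94.3 (224565_at). A dim set has less room to fall, and the part of this in the differences was not tested. The ABI probe differed from all 9 AFFX sets in the interaction fit, by -3.84 to -1.39 (AFFX change minus ABI change, adjusted p of 0.00692 or below). The lower calls of the 4 AFFX sets and the direction at the ABI probe were the same under every alternative run.

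**Figure D4:**
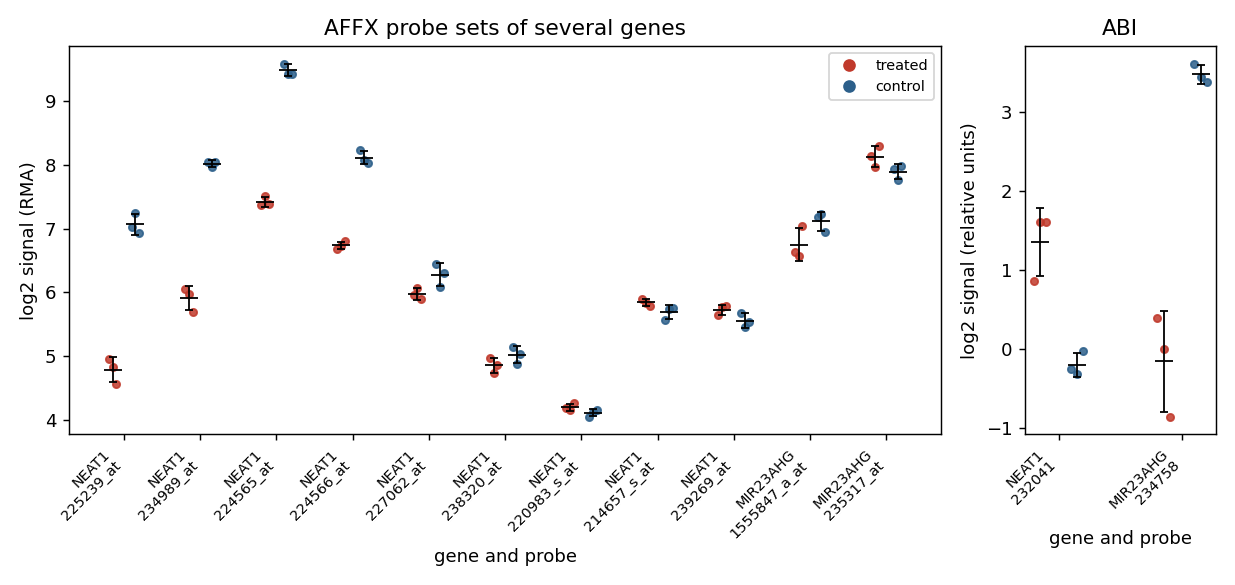
Log2 signal of each array at the probes listed for NEAT1 and MIR23AHG, on AFFX (left, RMA, sets shared with the microRNA genes) and ABI (right, log2 of relative units, probes of 1 gene); points are arrays, treated in red on the left of each pair and control in blue, and bars are the mean and SD of 3 arrays. For NEAT1 the 4 AFFX sets on the left have treated arrays far below control arrays and the ABI probe has them above, and for MIR23AHG only the ABI probe shows a wide gap.

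MIR23AHG had the widest change of the members. Its ABI probe had 0.39, 0.00 and -0.86 in treated cells and 3.62, 3.45 and 3.39 in control cells, a change of -3.64 ± 0.334 (12.5-fold lower, adjusted p = 0.00207), and the treated arrays stood at percentile 48.3 of brightness. Without detection flags, that treated signal cannot be told from background, so the size of the fall is uncertain. The 2 AFFX probe sets listed for MIR23AHG, MIR24-2 and MIR23A were not called: 1555847_a_at had 6.64, 6.57 and 7.04 in treated cells and 7.18, 7.23 and 6.95 in control cells (-0.37 ± 0.128, adjusted p = 0.0411), and 235317_at changed by 0.24 ± 0.105 (adjusted p = 0.0959). With either centring 1555847_a_at was called lower (-0.89 on the hybridisation controls, -0.67 on ribosomal protein genes), while 235317_at turned to -0.29 and -0.06 and was not called. The platforms differed by 3.27 ± 0.381 and 3.88 ± 0.366 at these sets (adjusted p = 0.000416 and 0.000124). The 2 AFFX sets also differed from each other within the arrays, by -0.61 ± 0.142 (adjusted p = 0.00961). With 1 ABI probe, no second ABI measurement of the transcript was at hand.

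LINC00926, a long intergenic RNA best known from B lymphocytes, was the member called higher at every one of its probes on both platforms. On AFFX 230245_s_at had 5.97, 5.96 and 6.14 in treated cells and 4.14, 4.54 and 4.51 in control cells, a change of 1.63 ± 0.115 (3.10-fold, adjusted p = 1.24e-06). At the brighter 230648_at, values were 7.54, 7.39 and 7.40 in treated cells and 6.89, 6.70 and 6.84 in control cells, a change of 0.63 ± 0.0882 (adjusted p = 0.000264). On ABI it had 1.40, 1.46 and 1.20 in treated cells and 0.52, 0.42 and 0.56 in control cells, a change of 0.85 ± 0.131 (1.81-fold, adjusted p = 0.0107). On control arrays 230245_s_at stood at percentile 30.7 of brightness and 230648_at at 71.5. The ABI probe stood at 54.7 on control and 63.9 on treated arrays, where VWF, an endothelial marker, stood at 65.9 and 65.8. Without detection flags, the control signals at 230245_s_at and on ABI cannot be told from background.

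No treated array of LINC00926 overlapped a control array. The 2 AFFX sets differed within the arrays by 1.00 ± 0.157 (adjusted p = 0.000936). At the set with the lowest p the AFFX change exceeded the ABI change by 0.78 ± 0.175 (adjusted p = 0.015), and at the brighter set the difference was -0.22 ± 0.137 (adjusted p = 0.364). With arrays centred on ribosomal protein genes the changes at 230648_at (0.33) and on ABI (0.23) were no longer called. The call at 230648_at was also lost when arrays were centred on the hybridisation controls (0.11) and without control replicate 2 (0.58), whereas 230245_s_at stayed called with both centrings (1.11 and 1.33).

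A2780 is not a B cell line, and the B lymphocyte markers were checked beside this result. At the brightest probe of each gene, 0 of 5 measured markers (MS4A1, CD79A, CD79B, CD22 and PAX5) were called on either platform. Their mean log2 signal ran from 6.03 to 6.13 on treated AFFX arrays and from 5.74 to 5.94 on control arrays, and from -1.5 to -0.98 and from -2.03 to -0.44 on ABI. At the AFFX probe with the lowest p, CD22 was called higher (0.62), which is named because it was the 1 marker of the list that was called. On AFFX the other leukocyte markers (4.86 to 5.04 on treated and 4.66 to 4.78 on control arrays) and the endothelial markers (4.86 to 4.92 and 4.61 to 4.71) did not overlap between the groups either, so the shift was not limited to B lymphocyte markers. The 5 B lymphocyte markers ranged in brightness from percentile 32.4 (MS4A1) to 78.4 (CD22) on treated AFFX arrays and from 34.6 (MS4A1) to 73.7 (CD22) on control arrays. The part of such markers in the LINC00926 result was not tested. Of the 5 markers listed for the line itself, vimentin (VIM) at its brightest probe stood at percentile 98.7 or above on both platforms, though the AFFX set with the lowest p was called lower (-1.51). On AFFX the keratins KRT8, KRT18 and KRT19 stood at percentiles 64.9, 62.5 and 38.9 on treated and 63.5, 59.5 and 35.3 on control arrays, and KRT18 was called lower on ABI (0.16 in treated and 1.03 in control cells). PAX8 stood at percentile 84.4 on treated and 80.5 on control AFFX arrays but at 31.4 and 42.9 on ABI.

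**Figure D5:**
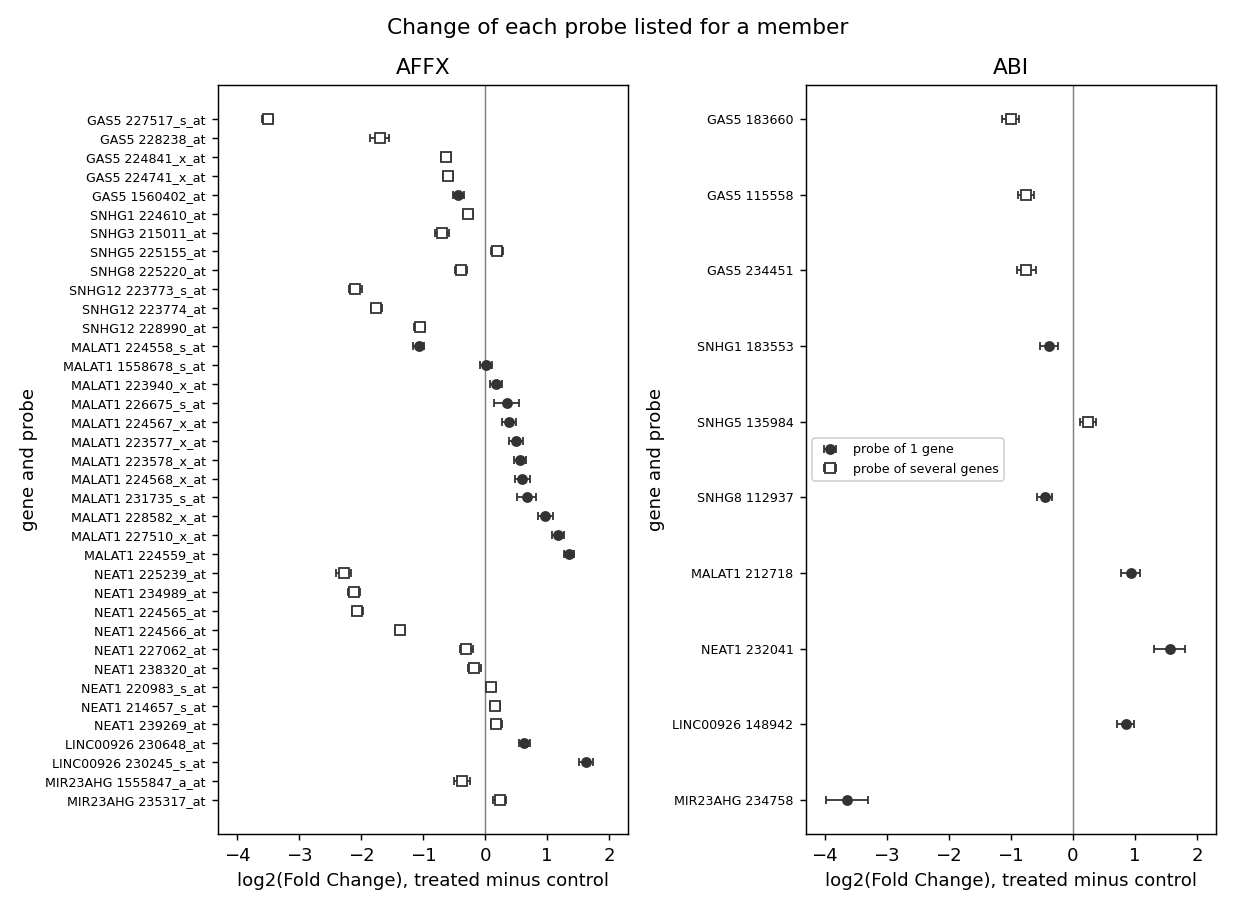
Change of each of the 47 probes listed for a member on AFFX (left) and ABI (right); the horizontal axis is the log2(Fold Change), treated minus control, with its standard error, filled circles are probes of 1 gene and open squares are probes listed for several genes. MALAT1 and LINC00926 lie mostly right of 0, GAS5 and SNHG12 wholly left of it, and NEAT1 and MIR23AHG lie apart on the 2 platforms.

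The genes around these RNAs were read from lists, at 1 probe per gene (the lowest p) on each platform, where 2.49% of AFFX genes were called higher and 14.2% lower, and 6.31% and 14.8% of ABI genes. Of the other non-coding snoRNA hosts, 0 of 8 measured on AFFX were called higher and 2 lower, and on ABI 1 of 4 was higher and 2 lower (median changes -0.21 and -0.41). SNHG17 was lower on both, averaging 9.94 in treated and 10.53 in control cells on AFFX (-0.59 ± 0.0867) and 2.23 and 3.33 on ABI (-1.10 ± 0.135). ZFAS1, a TOP host, was called lower on AFFX (-1.85 ± 0.135) and higher on ABI (0.61 ± 0.141). It is named for this split after its values were seen.

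Of the protein-coding snoRNA hosts 0 of 6 were higher and 1 lower on AFFX, and 2 of 15 higher and 1 lower on ABI. TAF1D, a host that codes for a subunit of the RNA polymerase I selectivity factor, was lower on both platforms (-1.44 ± 0.115 and -0.71 ± 0.145). Cytosolic ribosomal protein genes, the main TOP class, were called higher on ABI at 42 of 72 genes (median 0.63) but at 3 of 57 on AFFX with 3 lower (median 0.24). RPS6 and RPS21 (0.65 ± 0.0769 on AFFX, 0.67 ± 0.13 on ABI) were called higher on both. The ABI count was unstable, since leaving out any 1 ABI array left between 10 and 21 genes of all lists called higher there, of 43 with all arrays.

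Among proteins that make or assemble snoRNPs, 2 of 12 were lower on AFFX and 3 of 14 on ABI, with none higher. NUFIP1, an assembly factor of box C/D snoRNPs, was lower on both (-1.13 ± 0.0818 and -1.58 ± 0.153). Fibrillarin (FBL), the methylase of box C/D particles, was called on neither platform and changed by 0.36 on AFFX and 0.42 on ABI (an example chosen after the values were seen).

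Nonsense-mediated decay factors were lower at 3 of 6 measured genes on AFFX and 3 of 7 on ABI, with none higher (medians -0.62 and -0.83). UPF2 was lower by similar amounts on both platforms (-0.71 ± 0.0891 and -0.83 ± 0.121). SMG8 and SMG9, partners of the kinase that phosphorylates UPF1, were lower, with changes of -2.38 ± 0.0805 and -1.33 ± 0.0782 on AFFX and -3.20 ± 0.239 and -1.75 ± 0.196 on ABI.

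Of the paraspeckle and nuclear speckle proteins, 1 of 8 was higher and 2 lower on AFFX, and 0 higher and 2 of 8 lower on ABI. RBM14, a paraspeckle protein, and SON, a speckle protein, were lower on both platforms (RBM14 -0.60 ± 0.0855 and -0.60 ± 0.127, SON -1.11 ± 0.0787 and -1.41 ± 0.206). Of other long non-coding RNAs, 1 of 17 was higher and 4 lower on AFFX and 0 of 8 were called on ABI, and of other microRNA hosts 0 of 5 and 0 of 4 were called.

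The nearest protein-coding gene on each side of a member was read, and genes that overlap the member were passed over. Of these neighbours 3 of 16 were lower on AFFX and 3 of 15 on ABI, with none higher, beside 14.2% and 14.8% of all genes lower. The 2 genes called on both platforms were read as neighbours of snoRNA hosts, which make up 6 of the 10 members, so their place is no trait of such hosts. PHACTR4, the nearest gene without overlap on the lower-coordinate side of SNHG3, changed by -1.45 ± 0.0934 on AFFX and -0.85 ± 0.142 on ABI. WDR74, beside SNHG1, changed by -1.10 ± 0.0978 and -1.31 ± 0.13, while the SNHG1 probes changed by -0.27 and -0.38. FRMD8, the gene on the lower-coordinate side of NEAT1 and MALAT1, was called lower on AFFX only (-1.17 ± 0.155, with 0.08 ± 0.625 on ABI), and it is named after its values were seen.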

How the data were processed

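RNA of treated and control A2780 cells was measured on 3 AFFX (HG-U133 Plus 2.0) and 3 ABI (Human Genome Survey) arrays per condition. For AFFX the authors deposited log2 values, made by RMA with quantile normalization (version not given in the sources used here). For ABI the authors deposited linear chemiluminescence intensity values after global median normalization, and log2 was taken here with no offset. The scale of the ABI values in absolute terms is unknown, neither file carries detection flags, and 3 arrays per group limit the precision: the median SD between replicates was 0.113 (treated) and 0.0976 (control) log2 units on AFFX and 0.298 and 0.261 on ABI.

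Probe annotation came from the platform tables with older symbols updated. Each platform was fitted alone in limma 3.58.1 (R 4.3.3) without pairing, and p-values were adjusted by Benjamini and Hochberg across every probe apart from 62 AFFX controls. Genes of the lists were read at the probe with the lowest equal-variance p, the choice the methods describe, which favours larger changes. Differences between platforms were fitted as an interaction, and differences between probe sets on within-array log2 differences. An exact permutation test of 3 against 3 arrays cannot go below p = 0.1 and is not quoted for single probes. On simulated data the AFFX fit recovered 92% of 2-fold and 100% of 4-fold changes over 54613 probe sets, and the ABI fit 8% and 46% over 33096 probes. Under 1% of the simulated probes were changed, where 10.7% of AFFX and 17.8% of ABI probes were called in the real data. The adjusted threshold was therefore stricter in the simulation, and these shares do not give the recovery in the real data.

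All probes of all members are described. From each list up to 4 genes called alike on both platforms are named, the 3 genes most like GAS5 and MALAT1 by root mean square difference, and some others as the text says. The members, lists and rules were chosen with earlier results of these data known, and the probes of several genes, their within-array differences, the interaction of all member probe pairs and the suffix split were added after the data were seen. Alternatives were scaling, dim-probe filter, offset, fold limit, choice of probe, the methods' t-test, the replicate block and each array left out.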

Additional observations from a re-analysis of the deposited data

Results flagged for a closer look

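The response of LINC00926 differed between the platforms: the change on AFFX minus the change on ABI was 0.78 ± 0.175 log2 units (adjusted p = 0.015, interaction in limma over 16186 genes, of which 15.1% passed). All 3 treated arrays were higher than all control arrays on both platforms. The AFFX set read here, 230245_s_at, was dim in control cells (percentile 30.7 of brightness). The difference stayed past the threshold when any 1 array was left out (0.65 to 0.85), was -0.22 (adjusted p = 0.364) at the AFFX probe set with the highest mean and 0.28 (adjusted p = 0.202) for the mean of both sets. The cause was not tested.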

How the results depend on the processing

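Of the 516 values of single probes under the alternatives, 446 kept direction and side of the threshold, 49 changed side and 21 changed sign. The sign changes were at small changes and mostly under another centring of the arrays, which moved the median change of all AFFX probes to -0.41 (hybridisation controls) or -0.18 (ribosomal protein genes), beside 0.12, and that of all ABI probes to -0.47, beside 0.16. The 18 hybridisation control probe sets, spiked into each sample, had medians of 9.12, 9.14 and 8.65 on treated and 8.60, 8.38 and 8.36 on control arrays (difference 0.52, exact permutation p = 0.1, the smallest possible). With that centring MALAT1 had -0.51 (1558678_s_at), -0.02 (223577_x_at), -0.35 (223940_x_at), -0.15 (224567_x_at) and -0.17 (226675_s_at), NEAT1 had -0.36 (214657_s_at), -0.43 (220983_s_at) and -0.35 (239269_at), SNHG5 had -0.33 and MIR23AHG 235317_at had -0.29. With ribosomal protein centring the same probes of MALAT1 had -0.29 (1558678_s_at) and -0.13 (223940_x_at), NEAT1 had -0.14, -0.21 and -0.12, SNHG5 had -0.11 on AFFX and -0.39 on ABI, and MIR23AHG had -0.06. NEAT1 220983_s_at was -0.01 after renewed quantile normalization, and 1558678_s_at ran from -0.08 to 0.08 over the arrays left out. The cause was not tested.

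Member probe sets called higher on AFFX numbered 7, against 3 (hybridisation control centring), 4 (ribosomal centring) and 3 (2-fold limit). Those called lower numbered 1, against 2 with either centring and 2 with no fold limit. Member genes called higher on AFFX numbered 2, against 1 with either centring, the brightest probe or the mean of probes, and lower 0, against 2 with either centring and 1 with no fold limit. On ABI 3 member probes, each of another gene, were higher, against 1 with ribosomal centring or a 2-fold limit, and 1 was lower, against 3 with ribosomal centring and 2 after quantile normalization. Leaving out 1 array gave 5 to 8 higher on AFFX, and 1 to 3 higher and 1 lower on ABI, where control replicate 2 took the count to 1. The probes of several genes called lower on ABI numbered 3, and 1 to 3 with 1 array left out. Genes of the lists called higher on AFFX numbered 5, against 1 (hybridisation control centring), 2 (ribosomal centring), 12 (quantile), 1 (brightest probe) and 5 to 9 (1 array left out, 9 without control replicate 1 or 3), and lower 20, against 43, 35 and 12 with the 2 centrings and the brightest probe. On ABI 43 were higher, against 0 (ribosomal centring), 9 (quantile) and 10 to 21 (1 array left out), and 14 lower, against 29 with ribosomal centring and 8 to 11 with 1 array left out. Of the 43, 42 were ribosomal protein genes, so the fall to 0 follows largely from centring on these same genes. Of member genes, 1 differed between the platforms, 0 with the mean of probes, and 1 to 2 with 1 array left out, 2 without ABI treated replicate 1. That gene was LINC00926, but at the brightest probe it was MALAT1 instead (-0.92, adjusted p = 0.00959, interaction in limma).

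The labels number the replicates alike in both conditions, but same-numbered arrays did not deviate together on every pair (correlations of 0.07, 0.00 and 0.33 on AFFX and 0.03, -0.01 and 0.07 on ABI), so the numbers do not pair the arrays. With the replicate block, the ABI probes of several genes called lower numbered 1 of 3, genes of the lists called higher on ABI 1 and lower 5, and LINC00926 on ABI lost its call at 0.85. The spread between ABI arrays, wider than that between AFFX arrays, limits what that platform can show. How many real 2-fold changes were missed there is not known, because the simulation changed far fewer probes than were called.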
